A study of Mus musculus with 21 samples.

Results

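The genes described here are 9 genes of glucose and glycogen metabolism in mouse liver: the gluconeogenic enzymes Pck1, G6pc and Fbp1, the glycolytic enzyme Pklr, the glycogen synthase Gys2, the glucose transporter Slc2a2, and the hormone-responsive genes Igfbp1, Ppargc1a and Irs2. Members were the probe sets whose platform gene symbol was one of these names, which gave 16 probe sets for 9 genes out of 12393 genes on the array. The probe set with the highest mean stood for each gene. Of the 9 genes, 8 passed the low-value filter, a log2 value above 4 on at least 3 arrays, and were tested among 7320 genes. Irs2 did not pass and was not tested.

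Liver RNA was hybridised to 21 Affymetrix arrays, 1 array a sample, from 12 male mice aged 9 months. KO mice were Mdr2-/-, lacking the bile canalicular phospholipid transporter encoded by Abcb4, in a strain given as FVB129P2. Control mice were given as FVB129P2/FVBNJ, with no Mdr2 genotype stated beyond the word control, so genotype and strain background cannot be told apart. All mice, KO and control, underwent a 30% partial hepatectomy, and the lobe taken at surgery was the day 0 sample. There were 6 KO samples on day 0, 3 on day 2 and 3 on day 6, and 3 control samples on each of these days. Each later KO sample came from a mouse that also gave a day 0 lobe, as did control samples 263 and 265 on day 2 and 303 on day 6, so replicates within a group were separate mice. The sources used here give neither feeding state nor hour of sampling, on which these genes are known to depend.

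The liver takes up glucose after a meal, stores it as glycogen and burns it through glycolysis, and releases glucose by glycogen breakdown and gluconeogenesis during fasting. Insulin represses the transcription of Igfbp1, G6pc and Pck1 and favours glycogen synthesis. Glucagon opposes insulin on these genes and on glycogen synthesis, and glucocorticoids induce the same genes but promote glycogen storage. Partial hepatectomy leaves the remaining liver to supply glucose for the whole body while it regrows, and Igfbp1 is a known immediate early gene of that response.

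Promoter sequences are shown for Igfbp1, G6pc and Pck1, 3 genes repressed by insulin, so that the motifs each holds can be set beside the values below. They are from RefSeq (GRCm38.p6), run from 250 bases before to 50 bases after the annotated start, lie on the plus strand at chr11:7197537-7197836, chr11:101367466-101367765 and chr2:173152823-173153122, and are written 5′ to 3′. Capitals mark CAAAACA, the core of the insulin response element known from Igfbp1, or its reverse complement TGTTTTG in the first 2 promoters, and CGTCA, the reverse complement of the cAMP response half-site TGACG, in the Pck1 promoter.
Igfbp1: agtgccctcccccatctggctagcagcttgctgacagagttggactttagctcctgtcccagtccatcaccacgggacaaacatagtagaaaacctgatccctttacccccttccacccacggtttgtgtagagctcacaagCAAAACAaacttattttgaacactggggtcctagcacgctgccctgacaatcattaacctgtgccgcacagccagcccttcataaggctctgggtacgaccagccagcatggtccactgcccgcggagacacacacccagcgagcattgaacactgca
G6pc: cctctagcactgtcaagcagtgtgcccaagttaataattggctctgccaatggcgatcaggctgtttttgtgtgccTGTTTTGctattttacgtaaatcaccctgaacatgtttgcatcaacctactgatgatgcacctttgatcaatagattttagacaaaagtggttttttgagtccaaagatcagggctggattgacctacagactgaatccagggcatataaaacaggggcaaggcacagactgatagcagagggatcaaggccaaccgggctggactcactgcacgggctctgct
Pck1: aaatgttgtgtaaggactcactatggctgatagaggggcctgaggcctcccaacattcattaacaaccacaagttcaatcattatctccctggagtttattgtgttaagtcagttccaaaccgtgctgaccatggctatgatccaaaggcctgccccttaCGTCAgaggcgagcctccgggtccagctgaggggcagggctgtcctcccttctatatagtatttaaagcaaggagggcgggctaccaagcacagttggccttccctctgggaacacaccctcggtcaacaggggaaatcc

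CAAAACA lay at position -108 in the Igfbp1 promoter, and its reverse complement at -174 in that of G6pc and at -37 in that of Irs2. Among 32851 promoters of 300 bases, 6.28% held this motif on either strand. CGTCA lay at -90 in the Pck1 promoter and at -49 in that of Ppargc1a, and 20.8% of all promoters held TGACG on either strand, including inside the full site TGACGTCA, which 1.79% held and no member did. The E box CACGTG lay at -44 in the Irs2 promoter and was held by 7.15% of promoters. GTAAACA and AGAACA, held by 3.65% and 19.0% of promoters, were in no member promoter searched. Promoters were available for 8 of the 9 members and were not used for Gys2.

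The labels, RNA quality and cell makeup were checked before the members were read. On the log2 scale Abcb4 was 7.25 to 8.96 in KO arrays, all below the 9.23 to 10.33 of control arrays. The difference between the 3′ and 5′ probe sets of Gapdh, a sign of shortened RNA, was above 1 on 3 arrays: 9.5 in control day 2 mouse 265, 2.03 in KO day 0 mouse 337 and 1.58 in control day 2 mouse 263. Results that include these arrays are given without them where a call of a named gene was lost. Leaving them out keeps 1 control array on day 2, whose spread is then assumed to be that of the other groups. Control day 6 mouse 303 lay just under the limit of 1, at 0.94, and was kept. The same difference for beta-actin was 2.72 on that array, against 2.48 in KO day 0 mouse 337. Hepatocyte markers summed to 17.2 to 17.3 (log2 of summed signal) in KO and 17.3 to 17.4 in control livers on day 0, with 1 of 8 tested markers lower in KO. Stellate cell and matrix markers rose in 7 of 9 tested genes on day 0, at 11.9 to 13.3 in KO against 9.69 to 10.5 in control livers, with Des at or under 4 on every array. Bile duct markers rose in 4 of 6, at 13.1 to 13.6 against 11.4 to 11.8. These sums reflect mostly Krt8 and Krt18, with medians of 11.37 and 12.35 over all arrays. The other genes of that list with a probe set had medians of 2.58 to 5.43. In the list of islet and exocrine pancreas, Ins2, Gcg, Sst and Cpa1 stayed at or under 4, and the 1 tested gene, Cela1, was lower in KO. The summed level was 7.79 to 8.65 in KO against 10.3 to 10.6 in control livers. It is mostly that of Cela1 and is not read as a sign of pancreas cells. The 1 tested gene of the muscle and adipose list, Fabp4, was higher in KO, with Ckm, Myh4, Acta1, Tnnt3, Adipoq and Retn at or under 4. The sums, mostly of Fabp4, were 7.82 to 8.95 in KO against 6.74 to 7.27 in control livers. Macrophage markers were higher in 1 and lower in 1 of 9, none of the tested lymphocyte (2), neutrophil (2) and endothelial (7) markers passed on day 0, and no kidney marker was above the filter. Stellate cell and matrix sums were also higher in KO without overlap on day 2, at 11.52 to 13.34 against 10.55 to 11.07. On day 6 they were 11.48 to 13.04 against 10.23 to 10.69. In whole liver RNA, fewer cells of a type and less RNA per cell cannot be told apart, and the part of these markers in the results below was not tested.

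Of the 8 tested members, Gys2 was lower and Igfbp1 higher in KO than in control livers on day 0, and none passed the test between the genotypes on days 2 and 6. In control livers Gys2 was lower and Igfbp1 higher on day 2 than on day 0, and Gys2 was also lower on day 6. The member calls of these comparisons share the same 3 control day 0 arrays. No member passed the test between days in KO livers or in the difference of the day responses between genotypes.

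The calls are read against the share of all 7320 genes that passed the same test. On day 0, 2 of 8 members passed between KO and control, where 9.66% of all genes did. On day 2 the count was 0 of 8, with 1 at an unadjusted p under 0.05, against 5.71% of all genes passing, and on day 6 it was 0 of 8, with 0 at an unadjusted p under 0.05, against 1.73%. Between day 2 and day 0 it was 0 of 8 in KO, with 1 unadjusted, where 0% of all genes passed, and 2 of 8 in control livers, where 9.51% passed. Between day 6 and day 0 it was 0 of 8 in KO, with 0 unadjusted, against 0.137%, and 1 of 8 in control livers against 2.86%. Between day 6 and day 2 no member passed and 0 had an unadjusted p under 0.05, against 0.123% of genes in KO and 1.94% in control livers. For the difference between genotypes in the change over days, 0 of 8 members passed on day 2 and 0 on day 6, with 1 unadjusted each, against 0% and 0.164% of all genes. With 8 genes, 1 or 2 calls are too few to set the members apart from the other genes.

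**Figure D1:**
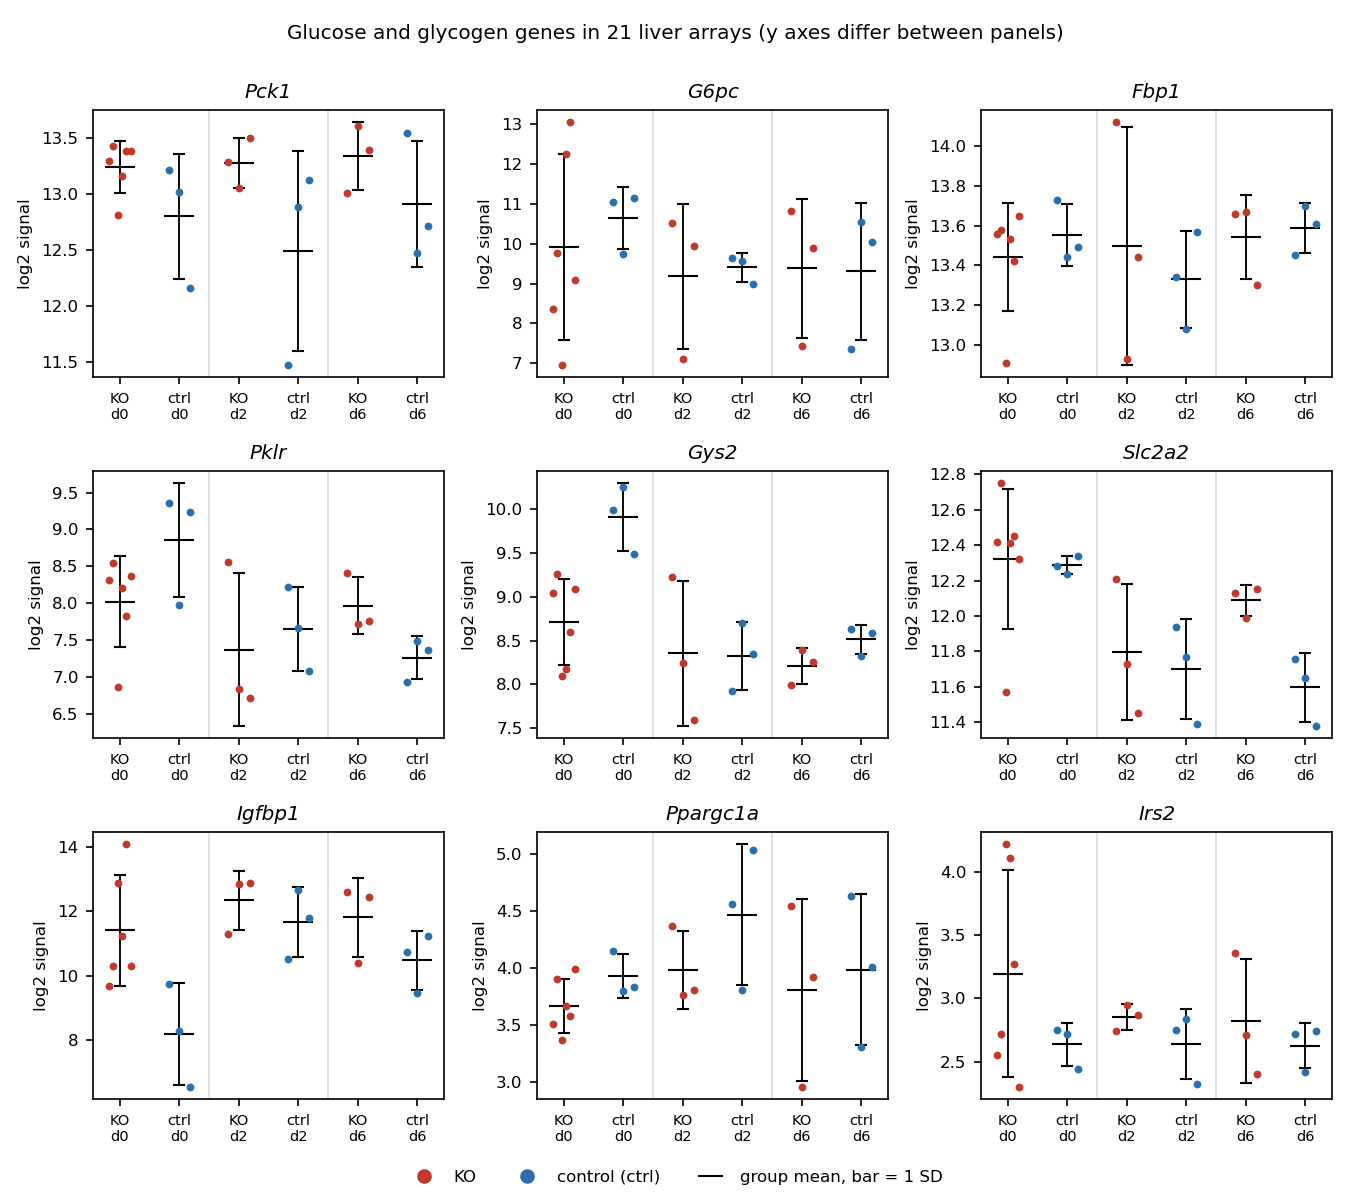
Log2 signal of the 9 members in each of 21 arrays by genotype and day, with KO left of control, group means and 1 SD. Control day 0 stands above all other groups for Gys2 and lowest on average for Igfbp1, while Fbp1 stays between 12.91 and 14.12 on every array.

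**Figure D2:**
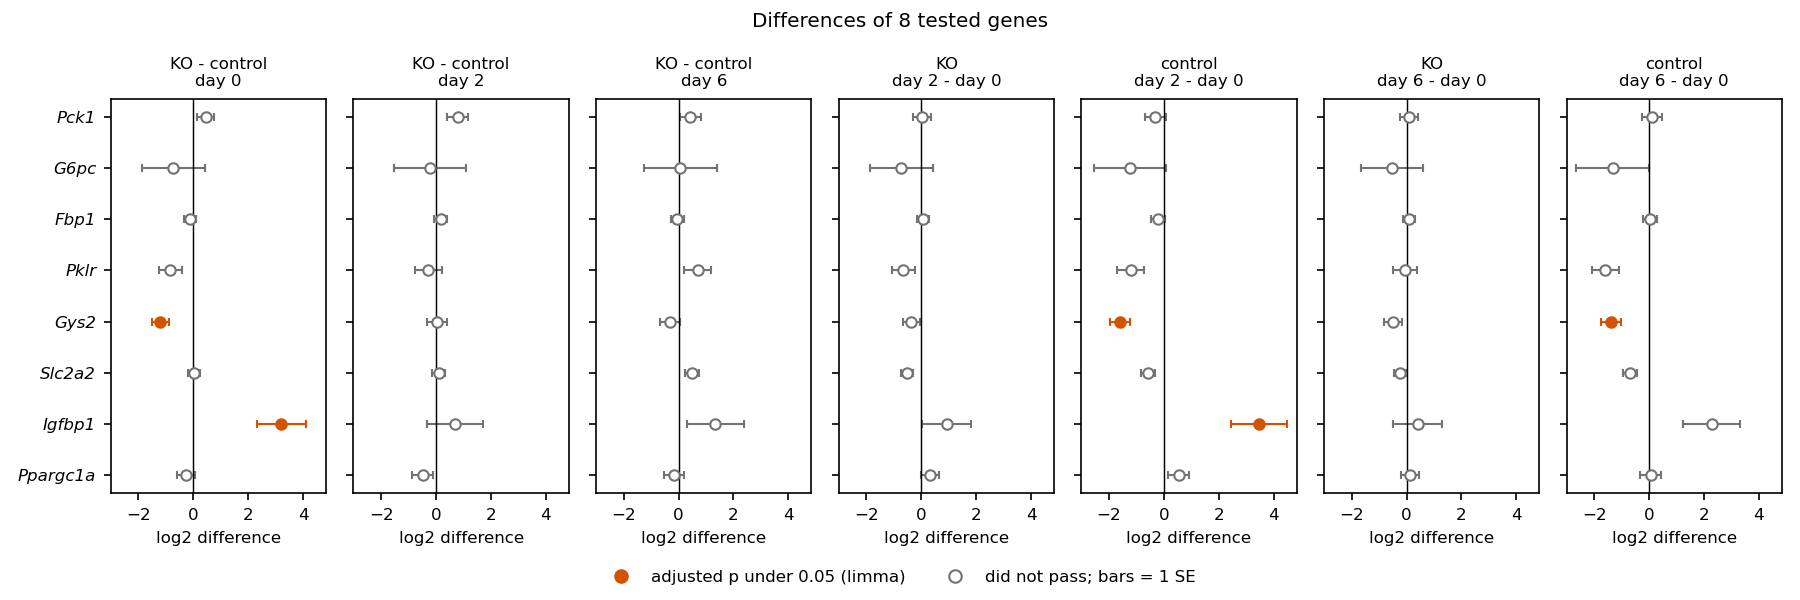
Log2 differences of the 8 tested members in 7 comparisons with 1 SE, first group minus second. Filled points passed the limma test at an adjusted p under 0.05, which are Gys2 in 3 comparisons and Igfbp1 in 2.

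Gys2 encodes the liver form of glycogen synthase, which extends glycogen chains from UDP-glucose. In KO livers on day 0 its log2 signal ran from 8.10 to 9.26 with a median of 8.82. On day 2 it was 9.23, 8.24 and 7.59 in KO mice 250, 254 and 258, and on day 6 it was 7.99, 8.39 and 8.26 in KO mice 312, 332 and 337. In control livers it was 9.99, 10.25 and 9.49 on day 0 in mice 263, 265 and 303. All 3 control day 0 arrays lay above every other array, and the remaining 5 groups overlapped. It was 7.93, 8.70 and 8.35 in control mice 263, 264 and 265 on day 2, and 8.63, 8.59 and 8.32 in control mice 303, 392 and 393 on day 6.

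On day 0 Gys2 averaged 8.71 ± 0.494 in KO (SD, n = 6) and 9.91 ± 0.386 in control livers (SD, n = 3). The difference was -1.20 ± 0.32 (SE, adjusted p = 0.0218 by limma with Benjamini-Hochberg adjustment), a 2.29-fold lower signal with a 95% interval of the log2 difference from -1.86 to -0.53. The call was lost without control mouse 263 (adjusted p = 0.0792) or 265 (adjusted p = 0.129). In control livers the day 2 difference from day 0 was -1.58 ± 0.37 (adjusted p = 0.0149), a 3.00-fold lower signal. Without the 3 arrays of shortened RNA this difference was -1.21 (adjusted p = 0.299), and it also lost the call without mouse 265 on day 0 (adjusted p = 0.0701) or on day 2 (adjusted p = 0.0512) and in the fit of only these groups (adjusted p = 0.0956). On day 2 the tested neutrophil markers, 2 of 2, were also higher in control livers, with sums of 8.31 to 11.5 on day 2 against 5.63 to 6.74 on day 0 and Elane, Mpo and Camp at or under 4 on every array. In the same comparison the sums were lower on day 2 without overlap for hepatocyte markers (17.0 to 17.2 on day 2 against 17.3 to 17.4 on day 0, 1 of 8 higher and 1 lower) and the islet and exocrine pancreas list, mostly Cela1 (7.95 to 10.01 against 10.3 to 10.6, 1 of 1 lower). They were higher without overlap for stellate cell and matrix markers (10.55 to 11.07 against 9.69 to 10.52, 2 of 9 higher) and the muscle and adipose list, mostly Fabp4 (7.57 to 8.01 against 6.74 to 7.27, 0 of 1 passing). The part of these markers in the day 2 changes of Gys2 and the genes below was not tested. On day 6 the control difference from day 0 was -1.40 ± 0.37 (adjusted p = 0.0474), and it lost the call when any 1 of the 6 arrays was left out (adjusted p 0.0627 to 0.198), in the fit of only these groups (adjusted p = 0.0695), without the filter (adjusted p = 0.0805) and with every probe set tested on its own (adjusted p = 0.0588). On day 6 bile duct markers were higher than on day 0 in 2 of 6. Their sums, mostly of Krt8 and Krt18, were 12.8 to 13.1 on day 6 against 11.4 to 11.8 on day 0. Neutrophil sums were 7.40 to 10.3 against 5.63 to 6.74, with 0 of 2 passing. The part of the bile duct and neutrophil markers in the day 6 changes of Gys2, Gyg and Pgm2 in control livers was not tested.

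The same mice give a second view of Gys2. In the 3 control mice sampled on both days, the change from day 0 was -2.06 and -1.90 log2 units on day 2 in mice 263 and 265, and -0.86 on day 6 in mouse 303. Both of these day 2 arrays had shortened RNA (Gapdh differences of 1.58 and 9.5), and mouse 264, with intact RNA, had no day 0 sample. For control livers the fixed block below rests on these mice alone, with 1 mouse on day 6. In KO mice the change was 0.19, -1.02 and -0.51 on day 2, and -0.19, -0.21 and -0.83 on day 6. Gys2 was therefore lower than on day 0 in 8 of 9 mice, the exception being KO mouse 250, and both control changes by day 2 were larger than that in any KO mouse. With the mouse as a fixed block, the control change on day 2 was -1.98 (adjusted p = 0.0220) and that on day 6 was -0.86 (adjusted p = 0.649). The difference between the genotypes in the day 2 response was 1.22 ± 0.48, KO minus control, with an unadjusted p of 0.0208 and an adjusted p of 0.268. For day 6 it was 0.90 ± 0.48 (adjusted p = 1), so a difference in response did not pass the test on either day.

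**Figure D3:**
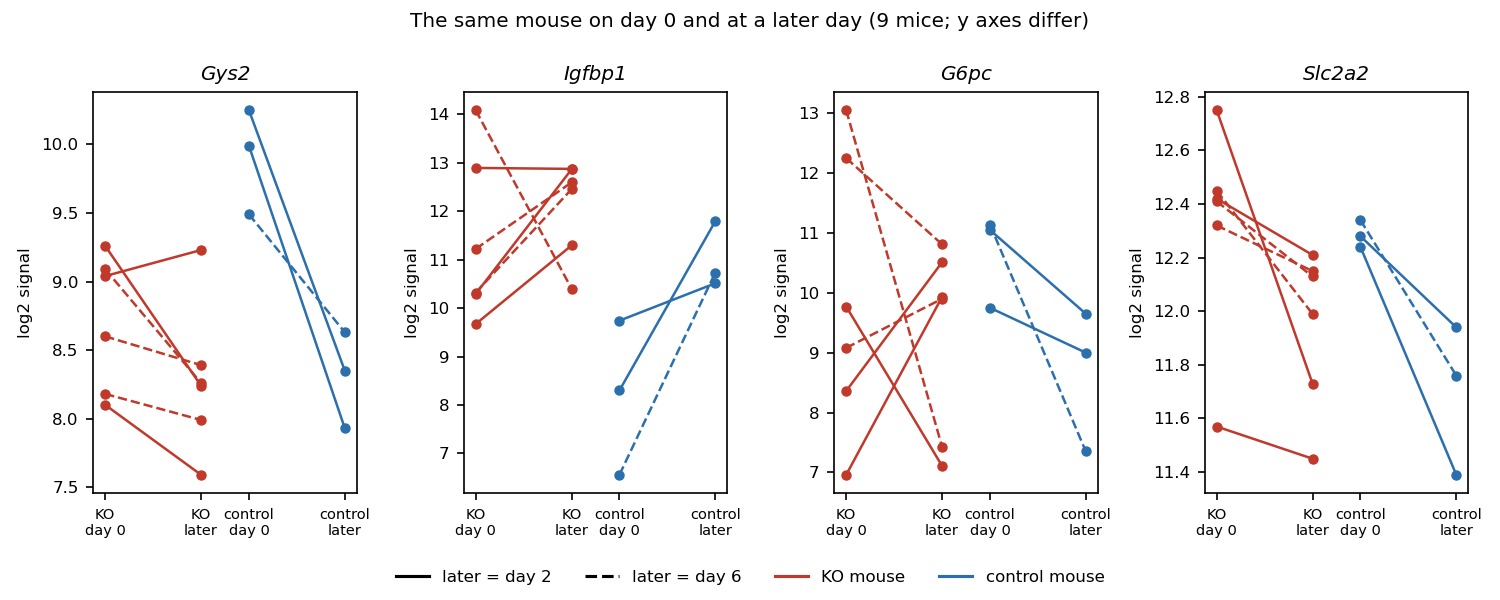
Log2 signal of Gys2, Igfbp1, G6pc and Slc2a2 in the 9 mice sampled on day 0 and again on day 2 (solid) or day 6 (dashed), KO at the left and control at the right of each panel. Slc2a2 is lower at the later day in 9 of 9 mice, and the G6pc lines cross in both directions.

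The other glycogen genes on the list comprised 24 genes, of which 21 had a probe set and 16 were tested. On day 0, 3 were higher and 0 lower in KO than in control livers, and the list median was 0.02 against 0.02 for all genes. The 3 were Gyg, glycogenin, which primes glycogen chains, Pygb, the brain form of glycogen phosphorylase, and Pgm2, a phosphoglucomutase family member. Gyg ran from 6.14 to 6.88 with a median of 6.45 in KO and was 5.29, 4.73 and 4.51 in control livers, without overlap. The difference was 1.60 ± 0.22 (adjusted p = 6.85e-05). Pygb ran from 4.62 to 5.44 with a median of 4.91 in KO and was 3.62, 3.25 and 3.73 in control livers. These control values lie under the filter value of 4, near background, so the difference of 1.46 ± 0.22 (adjusted p = 0.000247) may understate its size. Pgm2 ran from 4.65 to 5.22 with a median of 4.78 in KO and was 3.63, 3.36 and 3.53 in control livers, again under 4, with a difference of 1.35 ± 0.23 (adjusted p = 0.000654). All 3 calls were kept in each leave-one-out fit and without the 3 arrays of shortened RNA. They were also kept in each other alternative run that tested the gene. The filter at log2 6 did not test Pygb or Pgm2, whose highest values over all arrays were 5.95 and 5.50. The stellate, matrix and bile duct markers given above were higher in the same KO samples.

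On later days the difference of Pygb stayed past the test on day 6. It was 5.63, 5.34 and 5.95 in KO, against 4.15, 4.73 and 4.08 in control livers, a difference of 1.32 ± 0.26 (adjusted p = 0.00892). The call was lost without KO mouse 337 or control mouse 393, with an adjusted p of up to 0.0707, and in the fit of only these groups (adjusted p = 0.118). The stellate cell and matrix sums given above were higher in the same KO samples on day 6. On day 2 none of the 16 passed between genotypes, and Gyg had the smallest p, at 6.43, 6.76 and 6.87 in KO against 5.69, 5.57 and 6.40 in control livers (0.80 ± 0.25, adjusted p = 0.0635).

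In control livers after surgery the glycogen list split. On day 2, 2 of 16 were higher and 4 lower than on day 0, the 3 largest differences being those of Ugp2, which makes UDP-glucose, Gbe1, the branching enzyme, and Pygl, the liver form of glycogen phosphorylase. Ugp2 was 11.29, 11.06 and 10.65 on day 2 against 12.47, 12.27 and 12.20 on day 0 (-1.31 ± 0.28, adjusted p = 0.00933). Gbe1 was 7.71, 7.94 and 8.07 against 9.41, 8.86 and 9.39 (-1.31 ± 0.27, adjusted p = 0.00763). Pygl was 10.65, 10.79 and 10.79 against 11.93, 11.67 and 11.99 (-1.12 ± 0.21, adjusted p = 0.00556). In each of these 3 genes the day 2 arrays lay below the day 0 arrays, mouse 264 with intact RNA included. The genes were named for their differences in this same comparison, so this separation is not separate support. Without the 3 arrays of shortened RNA the differences were -1.25, -1.28 and -1.07, and with 1 control array left on day 2 none passed (adjusted p 0.143, 0.121 and 0.106). In the fit of only these groups they had adjusted p of 0.0905, 0.0905 and 0.0852, and leaving out mouse 265 on day 2 alone ended the call of Ugp2 (adjusted p = 0.0512). Gyg and Pgm2 were the 2 that were higher on day 2, by 1.04 and 0.96. With the mouse as a fixed block they had adjusted p of 0.0795 and 0.0767, without the arrays of shortened RNA they were 0.73 (adjusted p = 0.313) and 1.03 (adjusted p = 0.185), and without single arrays, 265 on either day or 303 on day 0 for both and 263 on day 0 for Pgm2, the adjusted p reached 0.0838 and 0.125. On day 6 they were the 2 of 16 that passed. On day 6 Gyg was 6.09, 6.57 and 6.22, and its difference from day 0 was 1.45 ± 0.25 (adjusted p = 0.00407), or 1.58 (adjusted p = 0.227) with the mouse as a fixed block. Pgm2 was 4.38, 5.15 and 4.38 on day 6 (1.13 ± 0.26, adjusted p = 0.0241), and lost the call without any 1 of the day 0 arrays or without mouse 392 on day 6 (adjusted p up to 0.158), with quantile normalization and with the fixed block (0.85, adjusted p = 0.569).

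In KO livers 0 of 16 glycogen genes passed on day 2 or day 6 against day 0. Ugp2 had the smallest p on day 2, at 11.07, 11.18 and 10.81 on day 2 against 11.24 to 12.66 on day 0 (-1.07 ± 0.24, adjusted p = 0.353). The day 2 arrays lay below all 6 day 0 arrays, as they did in control livers.

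**Figure D4:**
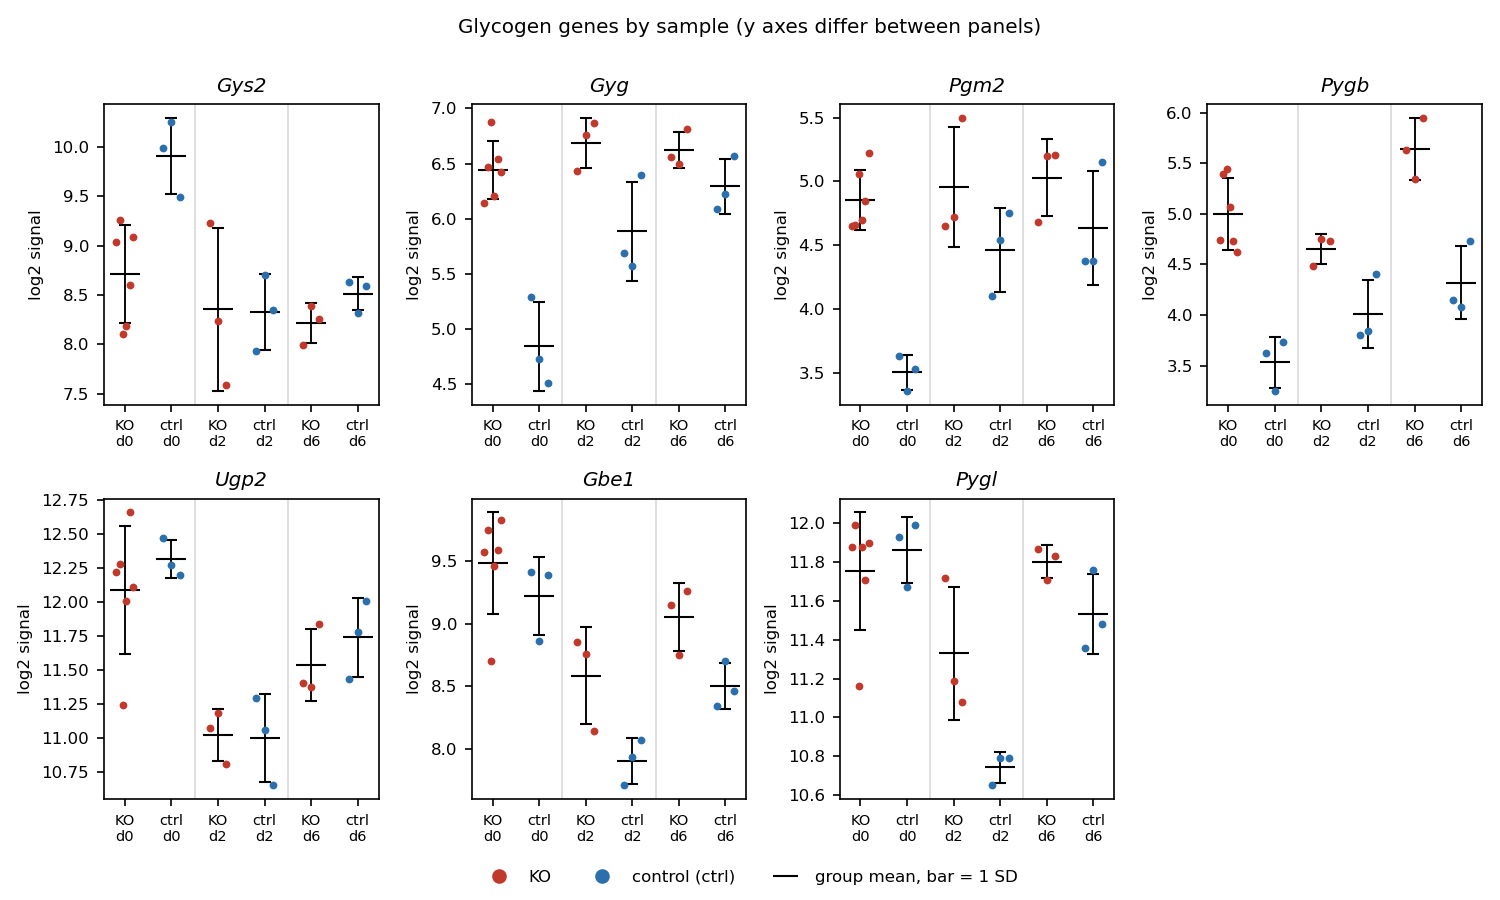
Log2 signal of Gys2 and 6 other glycogen genes in each array by genotype and day, KO left of control, with group means and 1 SD. For Gyg, Pgm2 and Pygb the control day 0 arrays lie below all KO day 0 arrays, and for Ugp2 the day 2 arrays of both genotypes lie below the day 0 arrays of their genotype.

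Igfbp1 encodes a secreted binding protein of insulin-like growth factors that hepatocytes make when insulin is low and after liver injury. In KO livers on day 0 it ran from 9.67 to 14.08 with a median of 10.77. It was 11.29, 12.86 and 12.87 on day 2 in KO mice 250, 254 and 258, and 12.59, 10.40 and 12.45 on day 6 in KO mice 312, 332 and 337. In control livers it was 9.74, 8.30 and 6.56 on day 0 in mice 263, 265 and 303. KO and control livers overlapped on day 0 by 1 pair of arrays, control mouse 263 at 9.74 and KO mouse 250 at 9.67. It was 10.51, 12.67 and 11.79 in control mice 263, 264 and 265 on day 2, and 10.73, 11.23 and 9.47 in control mice 303, 392 and 393 on day 6.

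On day 0 Igfbp1 averaged 11.4 ± 1.72 in KO (SD, n = 6) and 8.20 ± 1.59 in control livers (SD, n = 3), a difference of 3.21 ± 0.89 (SE, adjusted p = 0.0276) or 9.26-fold. Its 95% interval ran from 1.34 to 5.08, and the call was lost without KO mouse 258 (adjusted p = 0.0580), control mouse 265 (adjusted p = 0.0938) or control mouse 303 (adjusted p = 0.195), without the filter (adjusted p = 0.0641) and in the fit of only these groups (adjusted p = 0.0604). In control livers the day 2 difference from day 0 was 3.46 ± 1.03 (adjusted p = 0.0418), and the groups did not overlap. This call was lost without the arrays of shortened RNA (4.47, adjusted p = 0.174), with the mouse as a fixed block (2.13, adjusted p = 0.310), and without mouse 264 or 265 on day 2 or mouse 265 or 303 on day 0 (adjusted p 0.0846 to 0.177). It was also lost without the filter (adjusted p = 0.0805) and in the fit of only these groups (adjusted p = 0.147). On day 6 the control difference was 2.28 ± 1.03 (adjusted p = 0.271). All 3 control mice had more Igfbp1 signal at the later day than on day 0, by 0.77 and 3.49 in mice 263 and 265 on day 2 and by 4.17 in mouse 303 on day 6. Among KO mice it was higher on the later day in 4 of 6, with changes of 1.62, 2.57 and -0.02 on day 2 and 1.37, -3.68 and 2.13 on day 6. The genotypes' day 2 responses differed by -2.53 ± 1.36, KO minus control (adjusted p = 0.398).

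Pck1 encodes the cytosolic phosphoenolpyruvate carboxykinase that commits oxaloacetate to gluconeogenesis. Its log2 signal ran from 12.81 to 13.43 with a median of 13.34 in KO livers on day 0 and was 13.21, 13.02 and 12.16 in control livers. On day 2 it was 13.28, 13.05 and 13.50 in KO, against 11.47, 12.88 and 13.12 in control livers. On day 6 it was 13.01, 13.61 and 13.39 in KO, against 13.54, 12.71 and 12.47 in control livers. The genotypes overlapped on each day, and the lowest array was control day 2 mouse 263. The day 2 difference was 0.79 ± 0.37 with an unadjusted p of 0.0474 and an adjusted p of 0.200. It was 0.28 without control mouse 263 (adjusted p = 0.622) and 0.40 without the arrays of shortened RNA (adjusted p = 0.888). A further Pck1 probe set was above 4 on 1 of 21 arrays and adds no measured level.

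G6pc encodes the catalytic subunit of glucose-6-phosphatase, which releases free glucose from the liver. Its signal was the most variable among the members on day 0 in KO livers, from 6.96 to 13.05 with a median of 9.43 (SD 2.33, n = 6). On day 0 it was 11.05, 9.75 and 11.14 in control livers, inside the KO range. On day 2 it was 10.51, 7.11 and 9.93 in KO, against 9.65, 9.56 and 9.00 in control livers, and on day 6 it was 10.81, 7.43 and 9.90 in KO, against 10.54, 10.05 and 7.35 in control livers. Each group overlapped the next in the order of means. In control livers the day 2 arrays lay below all day 0 arrays (-1.24 ± 1.32, adjusted p = 0.572), and no comparison had an unadjusted p under 0.1. Within mice the change from day 0 ran from -5.62 in KO mouse 332 on day 6 to 2.97 in KO mouse 258 on day 2. G6pc was lower at the later day in 3 of 3 control mice, by 0.75 to 3.79, and in 3 of 6 KO mice. With this spread, the 95% interval of the day 0 difference between KO and control ran from -3.13 to 1.66 log2 units.

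Fbp1 encodes fructose-1,6-bisphosphatase, the enzyme that opposes phosphofructokinase. It was the steadiest tested member by its pooled range, from 12.91 to 14.12 over all 21 arrays. Both extremes were KO samples, mouse 258 on day 0 and mouse 250 on day 2. The 6 group means lay between 13.3 and 13.6, every group overlapped the next in the order of means, and no comparison had an unadjusted p under 0.1. The 95% interval of the day 0 difference between KO and control ran from -0.57 to 0.34. The promoters of Igfbp1 and G6pc both held CAAAACA on 1 strand. The 95% intervals of their day 0 differences between genotypes overlapped, at 1.34 to 5.08 for Igfbp1 and -3.13 to 1.66 for G6pc. Neither a difference between these 2 genes nor a part of the motif was tested.

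Of 28 other genes of gluconeogenesis and pyruvate handling, 26 had a probe set and 23 were tested. On day 0, 2 were higher and 0 lower in KO than in control livers. Pdk4 encodes a kinase that shuts off pyruvate dehydrogenase in fasting, and it ran from 6.69 to 8.41 with a median of 7.21 in KO and was 5.79, 3.78 and 3.99 in control livers. The groups did not overlap (2.75 ± 0.71, adjusted p = 0.0197), and the call was lost without control mouse 265 or 303 (adjusted p up to 0.120). Both of these control arrays, at 3.78 and 3.99, lay under the filter value of 4, near background. Mdh2, mitochondrial malate dehydrogenase, had a difference of 0.52 ± 0.15 (adjusted p = 0.0388) and lost the call without any 1 of 7 of the 9 arrays (adjusted p up to 0.178), with array median centring and in the fit of only these groups (adjusted p = 0.0602).

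On day 2, 1 of 23 passed between genotypes. Got1, cytosolic aspartate aminotransferase, was 11.25, 9.99 and 11.15 in KO, against 7.99, 8.58 and 8.59 in control livers, without overlap. The difference was 2.41 ± 0.41 (adjusted p = 0.00294). Without the arrays of shortened RNA it was 2.22 (adjusted p = 0.135), and in the fit of only these groups the adjusted p was 0.0967. On day 6 none of the 23 passed between genotypes. Got1 was higher on day 6 than on day 2 in control livers, at 10.06, 9.59 and 10.72 on day 6 (1.74 ± 0.41, adjusted p = 0.0326). Without the arrays of shortened RNA the difference was 1.54 (adjusted p = 0.404), and the call was also lost without mouse 263 or 265 on day 2 or 303 or 393 on day 6.

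In control livers on day 2, 3 of the 23 were higher and 2 lower than on day 0, with a list median of -0.53 against 0.08 for all genes. Pdk4 was 5.91, 8.85 and 9.73 on day 2 in mice 263, 264 and 265 (3.64 ± 0.83, adjusted p = 0.0137). On day 0 it had been 5.79 in mouse 263 and 3.78 in mouse 265, so mouse 263 changed least of the pair, and with the mouse as a fixed block it was 3.03 (adjusted p = 0.115). The day 0 values of Pdk4 in mice 265 and 303 lay under 4, near background. The lactate and pyruvate transporter Slc16a1 was 10.71, 11.06 and 12.04 on day 2 against 9.55, 9.78 and 9.43 on day 0 (1.68 ± 0.38, adjusted p = 0.0134). Pdk2, another pyruvate dehydrogenase kinase, was lower (-1.52 ± 0.37, adjusted p = 0.0184). Without the arrays of shortened RNA the difference of Pdk4 was 4.33 (adjusted p = 0.0459), while those of Slc16a1 and Pdk2 were 1.47 (adjusted p = 0.183) and -1.10 (adjusted p = 0.374). Each call was also lost without mouse 265 on day 2 or 303 on day 0, and that of Pdk4 without 265 on day 0 as well, with adjusted p up to 0.0696 for Pdk4, 0.0663 for Slc16a1 and 0.0805 for Pdk2. In KO livers none of the 23 passed on day 2 or on day 6 against day 0.

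Pklr encodes the liver form of pyruvate kinase, the last step of glycolysis, which is induced by glucose and insulin. Its main probe set ran from 6.87 to 8.55 with a median of 8.26 in KO livers on day 0, and was 9.36, 7.97 and 9.24 in control livers. It was 8.56, 6.84 and 6.71 on day 2 and 8.41, 7.72 and 7.76 on day 6 in KO livers. In control livers it was 8.22, 7.66 and 7.08 on day 2, and 6.93, 7.37 and 7.49 on day 6. Control arrays on day 6 lay below all 3 control arrays on day 0, while the KO groups overlapped. The control day 6 difference from day 0 was -1.59 ± 0.49 with an unadjusted p of 0.0046 and an adjusted p of 0.0937, and that of day 2 was -1.20 ± 0.49 (adjusted p = 0.126). The day 0 difference between KO and control was -0.84 ± 0.43 (adjusted p = 0.263). The day 6 response differed between genotypes by 1.54 ± 0.65, KO minus control (unadjusted p = 0.0303, adjusted p = 0.804).

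The 3 probe sets of Pklr did not all pass where each was tested on its own among all probe sets, a fit with its own adjustment. Probe set 1421258_a_at was 4.37, 5.76 and 3.52 in control livers on day 2 in mice 263, 264 and 265, against 7.88, 7.29 and 8.52 on day 0. The difference was -3.35 ± 0.71 (adjusted p = 0.0102). Probe set 1421259_at was 2.44, 2.65 and 2.35 on day 2 against 4.60, 3.95 and 5.16 on day 0, a difference of -2.09 ± 0.57 (adjusted p = 0.029), with the day 2 values under 4 and so near background. The main probe set had an adjusted p of 0.124 in that fit. The lowest array of both further probe sets on day 2 was mouse 265, with a Gapdh difference of 9.5. Without the 3 arrays of shortened RNA, an alternative chosen after seeing the data, the differences were -2.14 (adjusted p = 0.232) and -1.92 (adjusted p = 0.275). On day 6, where no array was left out, 1421259_at was 2.32, 2.47 and 2.42 in control livers (-2.17, adjusted p = 0.0564), and the same difference passed in the fit without the 3 arrays (adjusted p = 0.0369). On that day it was 3.99, 4.41 and 4.91 in KO livers, without overlap with control, and the difference of 2.03 ± 0.57 had an adjusted p of 0.0934.

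**Figure D5:**
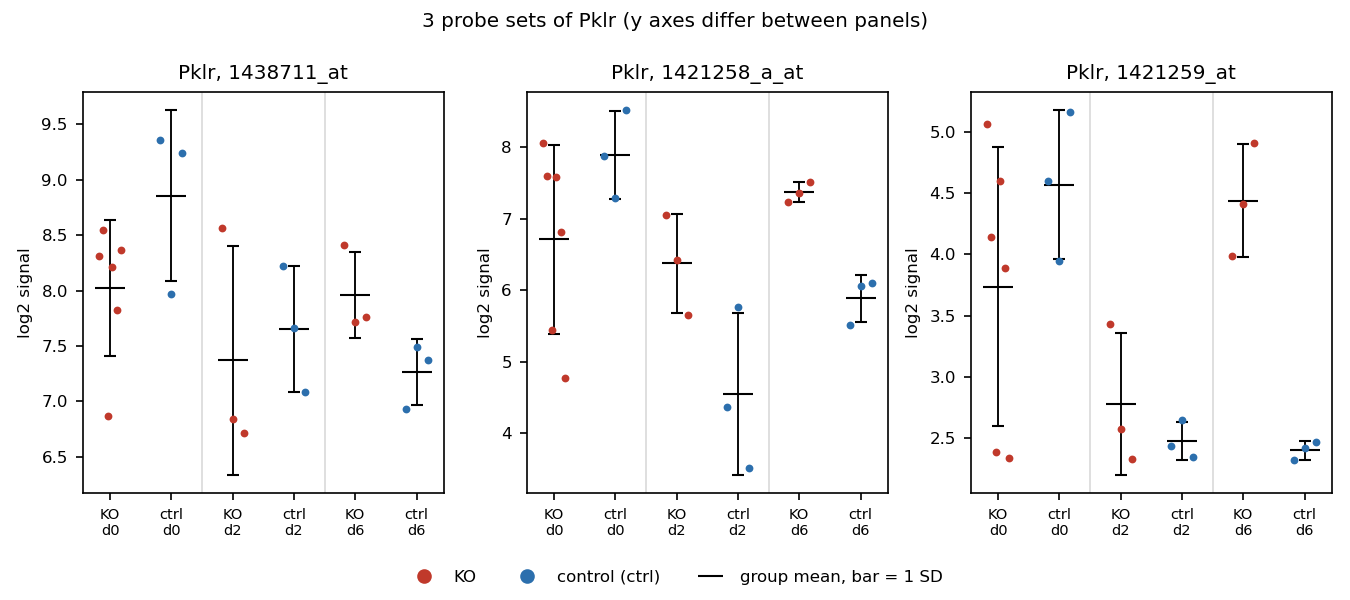
Log2 signal of 3 probe sets of Pklr in each array by genotype and day, KO left of control, with group means and 1 SD. In all 3 the control arrays on day 6 lie below those on day 0, and in the right panel the control arrays on days 2 and 6 are all under 4, near background.

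Of 25 other glycolysis genes, 17 had a probe set and 12 were tested. Between KO and control on day 6, 1 passed and was higher, the aldolase isoform Aldoc. It was 7.50, 7.93 and 8.81 in KO, against 6.16, 6.27 and 6.61 in control livers, without overlap (1.73 ± 0.41, adjusted p = 0.0323). The call was lost without KO mouse 332 or 337 or any 1 control array (adjusted p up to 0.207) and in the fit of only these groups (adjusted p = 0.129). Stellate cell and matrix sums were higher in the same KO samples, as given above. None of the 12 passed in any other comparison, and on day 0 Aldoc had the smallest p (0.84 ± 0.35, adjusted p = 0.153). The list median on day 0 was 0.34 against 0.02 for all genes. In control livers on day 2, Gckr, the inhibitor of glucokinase, had the smallest p (-0.70 ± 0.22, adjusted p = 0.0543).

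Slc2a2 encodes GLUT2, the bidirectional glucose transporter of hepatocytes. It ran from 11.57 to 12.75 with a median of 12.41 in KO livers on day 0 and was 12.28, 12.24 and 12.34 in control livers. It was 12.21, 11.73 and 11.45 on day 2 and 12.13, 11.99 and 12.15 on day 6 in KO livers. In control livers it was 11.94, 11.77 and 11.39 on day 2, and 11.76, 11.38 and 11.65 on day 6. On both later days all control arrays lay below all control day 0 arrays, and on day 6 all KO arrays lay above all control arrays. Within mice it was lower at the later day than on day 0 in 9 of 9, by 0.12 to 1.02 in the 6 KO mice and by 0.34 to 0.85 in the 3 control mice.

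None of these differences of Slc2a2 passed the test over all genes. The control day 6 difference from day 0 was -0.69 ± 0.25 (unadjusted p = 0.012, adjusted p = 0.159), and that of day 2 was -0.59 ± 0.25 (adjusted p = 0.135). In KO livers the day 2 difference was -0.52 ± 0.21 (unadjusted p = 0.025, adjusted p = 0.735). On day 6 the difference between KO and control was 0.49 ± 0.25 (adjusted p = 0.420), with a 95% interval from -0.03 to 1.01. On day 0 the interval of that difference ran from -0.42 to 0.48.

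Of 21 other genes of sugar transport, fructose, galactose and the pentose phosphate pathway, 17 had a probe set and 15 were tested, and none passed in any of the 11 comparisons. Khk, ketohexokinase, the first enzyme of fructose breakdown, came nearest, with -1.69 ± 0.53 in control livers on day 2 against day 0 (adjusted p = 0.0525).

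Ppargc1a encodes a coactivator that drives gluconeogenic and mitochondrial genes in fasting. Its main probe set was above 4 on 7 of 21 arrays and lay between 2.96 and 5.03, so its group values are near background. It ran from 3.37 to 3.99 in KO livers on day 0 and was 4.15, 3.80 and 3.83 in control livers. No comparison of it had an unadjusted p under 0.1. Of its 5 probe sets, 1434100_x_at passed in 1 comparison when tested on its own, at 4.68, 4.23 and 5.02 in control livers on day 2 against 3.23, 3.86 and 3.62 on day 0 (1.07 ± 0.27, adjusted p = 0.0208). Without the arrays of shortened RNA it was 0.66 (adjusted p = 0.334).

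Irs2 encodes the insulin receptor substrate that carries much of the insulin signal in liver. Its single probe set was above 4 on 2 of 21 arrays, KO day 0 mice 258 and 312 at 4.22 and 4.11. The other 19 arrays lay between 2.30 and 3.36, so no level was measured for most samples.

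Of 55 other genes of hormone signalling and regulation, 51 had a probe set and 44 were tested. On day 0, 1 was lower and 0 higher in KO than in control livers. Nr0b2 encodes SHP, a corepressor induced by bile acids through FXR, and it ran from 8.02 to 9.16 with a median of 8.57 in KO and was 9.74, 9.73 and 9.94 in control livers. The groups did not overlap (-1.23 ± 0.31, adjusted p = 0.0143), and the call was lost without control mouse 265 or 303 (adjusted p up to 0.0737). On day 2, Tat, tyrosine aminotransferase, a glucocorticoid and cAMP target, was higher in KO (1.51 ± 0.42, adjusted p = 0.0409) and Pdpk1, the kinase that activates AKT, was lower (-1.07 ± 0.25, adjusted p = 0.0216). Without the arrays of shortened RNA both lost the call, at 1.75 (adjusted p = 0.164) and -0.39 (adjusted p = 0.740). Each also lost it without single arrays, 5 for Tat and 4 for Pdpk1, with adjusted p up to 0.144 and 0.0789, and in the fit of only these groups (adjusted p 0.319 and 0.342).

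In control livers on day 2, 2 of the 44 were higher and 3 lower than on day 0. Socs3, a feedback inhibitor of cytokine and insulin signals, was 9.42, 9.70 and 11.15 on day 2 against 8.11, 7.20 and 6.37 on day 0 (2.86 ± 0.79, adjusted p = 0.0322). Fkbp5, a glucocorticoid-induced chaperone, was 7.91, 9.15 and 9.69 against 6.66, 5.64 and 6.43 (2.67 ± 0.83, adjusted p = 0.0496). The kinase gene Stk11 was lower (-1.48 ± 0.43, adjusted p = 0.0367). Day 2 lay above day 0 on every array for Socs3 and Fkbp5, mouse 264 with intact RNA included. Without the arrays of shortened RNA none of the 3 passed (2.47, 2.91 and -0.31, adjusted p 0.314, 0.285 and 0.754). Under the fixed block by mouse, Socs3 and Fkbp5 had adjusted p of 0.0679 and 0.0594 and Stk11 kept its call. Without single arrays, any 1 of 3 for Socs3, 5 for Fkbp5 and 4 for Stk11, the calls were lost with adjusted p up to 0.140, 0.180 and 0.184, and Stk11 was -0.84 without mouse 265 on day 2. On day 6 the phosphatase gene Ptpn1, whose product acts on the insulin receptor, was the 1 of 44 that passed against day 0 (1.41 ± 0.35, adjusted p = 0.0382), and it lost the call without control mouse 265 or 303 on day 0 or 303 or 392 on day 6 (adjusted p up to 0.187) and with the fixed block (1.97, adjusted p = 0.254).

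Clock genes were read because the members are known to cycle over the day. Of 18, 16 had a probe set and were tested. On day 0, 1 was lower in KO, the clock output factor Hlf, from 5.90 to 7.60 with a median of 6.49 in KO and at 8.53, 8.08 and 8.49 in control livers (-1.79 ± 0.44, adjusted p = 0.0131). The call was lost without control mouse 263 or 303 (adjusted p up to 0.0624). In control livers on day 2, 2 were lower and 0 higher than on day 0, Per3 (-3.64 ± 1.03, adjusted p = 0.0339) and Cry2 (-1.39 ± 0.41, adjusted p = 0.0387), and neither passed without the arrays of shortened RNA (-4.10 and -1.24, adjusted p 0.226 and 0.353) or with the fixed block (adjusted p 0.0679 and 0.0570). Both were also lost without any 1 of 5 arrays for Per3 and 4 for Cry2 (adjusted p up to 0.105 and 0.134). Per3 was 3.94, 2.90 and 3.24 on day 2 in control mice 263, 264 and 265, under 4 and so near background. The median of the 16 genes was -1.17 on day 2 and -1.26 on day 6 against day 0 in control livers, compared with 0.08 and 0.00 for all genes, while in KO livers it was -0.08 and -0.34. The part of sampling hour in the differences of the members was not tested.

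The members did not vary together as 1 group. Over the 21 arrays, which share the normalization and the 6 groups, Pearson correlations are given as a description. Gys2 and Igfbp1 had r = -0.649, and Pklr and Slc2a2 had r = 0.774. After subtracting group means, Gys2 and Igfbp1 had r = -0.258, Pklr and Slc2a2 still had r = 0.759, and Fbp1 and Pklr had r = 0.703. Pck1 and G6pc, both enzymes of gluconeogenesis, had r = -0.133.

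Among all other tested genes, those whose log2 values followed a member most closely over the 21 arrays were named by the same measure. For Gys2 they were Gramd3 (r = 0.893), Acot12 (r = 0.884) and Tmem131l (r = 0.863). For Slc2a2 they were Rdh16 (r = 0.856), Bhlhe40 (r = 0.842) and Uox (r = 0.835), and for Igfbp1 they were Ier5 (r = 0.845), Mmp14 (r = 0.829) and Plscr1 (r = 0.816). For Pklr they were Galm (r = 0.812), Sucnr1 (r = 0.783) and Khk (r = 0.781), where Galm and Khk act on galactose and fructose. Measured by deviations from the group means, the closest gene to Pklr was Pygl (r = 0.835).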

How the data were processed

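Total RNA was extracted with Trizol and labelled with a 3′ IVT protocol, per the labels' protocols, and processed with GCRMA, per the submitters' processing notes. The deposited log2 values of 22690 probe sets were kept as given, with array medians of 3.8 to 4.1. The sources used here name no other step. The number of arrays sets the precision.

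Gene symbols came from the platform annotation: 20380 had 1 symbol, 691 several and 1555 none, and 64 were array controls. Only those with 1 symbol were used. Groups came from the titles, with the mouse number as the replicate. All 6 groups entered 1 limma model (limma 3.58.1, R 4.3.3, lmFit and eBayes, 15 residual degrees of freedom), with 11 contrasts and Benjamini-Hochberg adjustment over 7320 genes at 0.05. Differences are of log2 values, first group minus second, and tests are two-sided. The script was tested on simulated data. Figures used matplotlib 3.10.9 in Python 3.11.15.

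The members, the 6 pathway lists, the 10 marker lists and the tests were chosen with earlier results of these data known. Named genes were the members, Abcb4, up to 3 genes of a pathway list in a comparison that passed with the largest difference (or the smallest p where none passed), and the 3 genes most correlated with a member. Differences of members are printed where the unadjusted p was under 0.1, and by range or interval otherwise. The exception is G6pc in control livers on day 2 against day 0, printed with an unadjusted limma p of 0.358.

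Samples labelled with 1 mouse number are from 1 animal, so numbers pair day 0 with later samples. Over 9 pairs, deviations from group means correlated at -0.0568 to 0.303, with 5 above 0.1. Alternatives were other filters, probe set choices and normalizations, eBayes settings, the mouse as a fixed or random block, a fit of only the groups compared, leaving out each array, and leaving out the 3 arrays with a Gapdh difference above 1.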

Additional observations from a re-analysis of the deposited data

Results flagged for a closer look

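In KO livers on day 0, mouse 258 stood apart for 2 of the 9 members: Fbp1 at 12.91 and Slc2a2 at 11.57 were the lowest of 6 arrays. The gap to the next array was 0.689 of the group's range for Fbp1 and 0.636 for Slc2a2, above Dixon's 95% critical value for 6 samples. About 1 in 20 groups is expected to pass this limit by chance, and 9 were examined. The same array had the lowest signal of its group for G6pc (6.96), Pklr (6.87), Gys2 (8.10) and Pck1 (12.81), and 1 of the 2 highest for Igfbp1 (12.89). Its Gapdh difference was 0.12.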

How the results depend on the processing

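Of 88 differences of the 8 tested members, 5 passed the test, 18 had an unadjusted p under 0.1, and 0 of those 18 changed sign under any alternative run. Of all 88, 48 changed sign under at least 1 alternative, and 0 that had not passed did so under an alternative, all counted on the main probe set of each gene. Of the further probe sets, 2 of Pklr and 1 of Ppargc1a passed in control livers on day 2 where the main one did not. In control livers on day 6, Pklr probe set 1421259_at did not pass in the fit of all arrays. It did so without the 3 arrays of shortened RNA, as given above. The count of members called between KO and control on day 0, 2 in the fit of all arrays, was 1 without the filter and 1 in the fit of only the groups compared, and ran from 0 to 2 when single arrays were left out. In control livers on day 2 it was 2, and was 1 without the filter, 1 with the mouse as a fixed replicate block, 0 in the fit of only the groups compared and 0 without the 3 arrays with a Gapdh difference above 1, and ran from 0 to 2 when single arrays were left out. In control livers on day 6 it was 1, and was 0 without the filter, 0 with every probe set on its own, 0 with the fixed replicate block, 0 in the fit of only the groups compared, and 0 when any single array was left out. In the fit of only the groups compared, the named calls of Gys2, Gyg, Pgm2, Pygb, Pdk4, Nr0b2 and Hlf on day 0 and of Per3 in control livers on day 2 were kept, and every other named call was lost. The random block, with a correlation of 0.108, changed no member call. The fixed block could not give a difference between genotypes or between days 2 and 6, which no mouse spans. For control livers it rests on mice 263 and 265 on day 2, both with shortened RNA, and on mouse 303 on day 6. The fits without the filter and of only the groups compared adjust over more genes or use fewer arrays, and the cause of the other losses was not tested. Signal near background limits Ppargc1a and Irs2, and RNA quality on control day 2 limits every day 2 comparison that uses those arrays. On day 6, control mouse 303 had a Gapdh difference of 0.94, just under the limit of 1, which is a limit of the control day 6 comparisons.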
